A study of Homo sapiens with 12 samples.

Results

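MM.1S is a human multiple myeloma line, a malignancy of plasma cells, that is sensitive to dexamethasone. The arrays described here compare MM.1S cells sorted after a coculture of 24 hours with HS-5, a stromal line from human bone marrow, against MM.1S cells cultured alone for the same time. They are the 4 arrays whose titles name MM.1S, 2 alone and 2 after coculture, of 12 Affymetrix U133 Plus 2.0 arrays in the series. The others hold MM.1R, the dexamethasone-resistant derivative of MM.1S, and INA-6, a line dependent on interleukin 6, in the same conditions. The myeloma cells of every group, alone or cocultured, carried green fluorescent protein (GFP) stably, while HS-5 did not, and GFP-positive cells were separated from GFP-negative stroma by flow sorting. No other agent is named for any group.

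The 2 arrays of a condition are technical replicates per the series design text, so each condition is 1 sample and no p-value is given. Both values are shown instead, with the distance between the conditions read against the distance between duplicates. The values are probe set intensities, in arbitrary units on a linear scale. A log2 change is the mean of log2(intensity + 5) over the 2 coculture arrays minus the mean over the 2 arrays alone, which understates the change of dim genes. A gene is called higher where the lower coculture array stands at least 2-fold above the higher array alone on that scale, and lower in the reverse case. Every called gene thus has groups that do not overlap. All 12960 genes with a tested probe set were compared.

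In the marrow, myeloma cells live among stromal cells that secrete interleukin 6, chemokines, matrix and proteases. Interleukin 6 binds its receptor and gp130, which activates JAK kinases and the transcription factor STAT3. Adhesion to stroma and soluble factors together are known to support survival of myeloma cells and to reduce their response to drugs. HS-5 is known as a line that secretes large amounts of interleukin 6, interleukin 8 and colony-stimulating factors.

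Duplicate arrays agreed closely after coculture and less so alone. Across genes, the log2 values of the duplicates had a Pearson r of 0.952 alone, with 9.42% of genes at least 2-fold apart, and of 0.987 after coculture, with 2.63% of genes at least 2-fold apart. Genes are not independent replicates. Signs of RNA quality moved with the condition. In the ACTB control probe sets, the 3′-to-5′ ratio, which is higher in shortened transcripts, was 22.7 and 22.04 alone and 5.24 and 4.97 after coculture. The GAPDH ratio was 6.22 and 5.76 alone and 1.91 and 1.86 after coculture. Bacterial spike-in transcripts were brighter alone, by 4.81-fold for BioB, 4.88-fold for BioC, 2.18-fold for BioD and 1.24-fold for Cre. The part that these differences have in the changes below was not tested.

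Coculture went with more genes higher than lower. Of 12960 genes, 2466 were higher, which is 19.0% of all genes tested, and 760 were lower, which is 5.86%. Higher genes made up 76.4% of the calls. The median change of all genes was 0.19, and 57.9% of genes changed upwards. When the 4 arrays were quantile normalized, the counts became 1834 higher and 1200 lower, so that 60.4% of calls were higher, and the median change of all genes was −0.03. Centring each array on its median gave 79.9% of calls higher and a median of 0.26. Changes of gene groups are therefore read beside the median of 0.19. At a stricter spacing of 4-fold between the nearest arrays, 711 genes were higher and 63 lower, and at 16-fold the counts were 74 and 2.

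**Figure D1:**
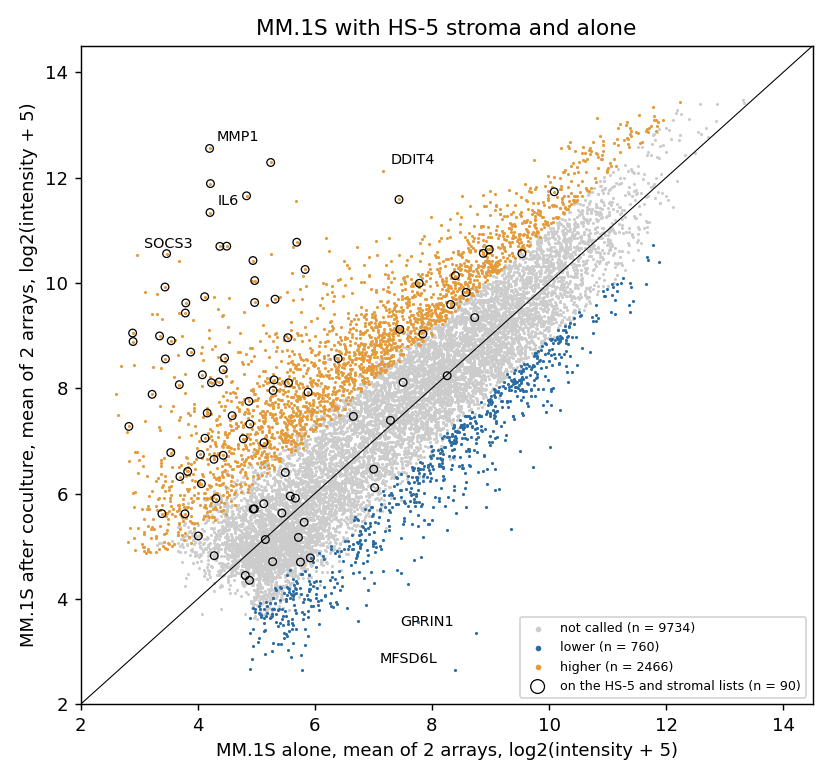
Mean log2(intensity + 5) of each of 12960 genes in MM.1S alone (horizontal) and after coculture with HS-5 (vertical), with the diagonal marking no change. Orange points are the 2466 genes called higher, blue the 760 called lower, grey the 9734 not called, and open circles the 90 tested genes of the HS-5 and stromal lists, of which 64 were higher and 0 lower.

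The largest differences were in genes barely above background in MM.1S alone. Of the 25 largest rises, 20 were below the median intensity of both arrays alone, 0 were in the top quartile of both, and 15 were on the lists of HS-5 and stromal genes described next. Those lists hold 90 of the 12960 genes tested. They were chosen with earlier results of these data known, so the overlap may be partly set by that choice. Among all 2466 higher genes, 64 were on those lists and 1121 were in the top quartile of both arrays alone. Genes below the median of both arrays alone were tested only because they were brighter after coculture. For those 601 genes the 386 higher (64.2%) and 0 lower (0.00%) calls are therefore partly set by the filter. Of the 5393 genes between these classes, 959 (17.8%) were higher and 217 (4.02%) lower. Over all 12359 genes that were not below the median of both arrays alone, 16.8% were higher and 6.15% lower, and list counts are given for such members where the filter weighs on them. Counts over all tested members of a list are to be read beside 19.0% higher and 5.86% lower of all genes.

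The genes typical of HS-5 stroma were far brighter in the cocultured MM.1S fraction. The interstitial collagenase MMP1 read 14.3 and 12.5 alone and 6131 and 5884 after coculture, a log2 change of 8.35 and the largest of the called genes. TFPI2, a secreted protease inhibitor, read 16.04 and 11.4 alone and 3783 and 3778 after coculture. Interleukin 6 (IL6) read 5.69 and 27.0 alone and 2596 and 2568 after coculture, a log2 change of 7.13. For all 3 genes, the arrays alone lay at or near background while the coculture arrays stood among the bright values of the array. The chemokine CXCL8 (interleukin 8) read 31.3 and 34.7 alone against 5025 and 4959, and the hormone STC1 read 10.1 and 23.7 against 1662 and 1641.

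Of the 32 tested genes of the list of HS-5 secreted factors, 25 were higher and 0 lower, with a median change of 4.05. The filter partly sets these values: of the 18 members below the median of both arrays alone, which entered through the coculture arrays, 17 were higher, and of the other 14, 8 were higher and 0 lower, beside 16.8% and 6.15% of all such genes. Among the cytokines, the neutrophil growth factor CSF3 read 2.52 and 2.36 alone and 473 and 464 after coculture. IL1A, IL1B, IL11 and LIF were also higher, with log2 changes of 6.16, 5.08, 3.87 and 2.55. The neutrophil-attracting chemokines CXCL1, CXCL2, CXCL3 and CXCL5 were higher by 4.18, 5.65, 3.92 and 5.64 on the log2 scale. The protease MMP3 and the BMP antagonist GREM1 were higher by 6.20 and 5.48, and the Wnt inhibitor DKK1 by 1.84. Not all factors followed. CSF1 changed by −0.36, PTX3 by 0.25 and HGF by 0.54, none of them called. VEGFA, which myeloma cells also make, read 692 and 786 alone and 1482 and 1518 after coculture, a change of 1.02 that missed the call.

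Matrix genes showed the same pattern. Of 34 tested genes of the stromal matrix list, 24 were higher and 0 lower, with a median change of 2.40. All 11 members below the median of both arrays alone were higher, which the filter partly sets. Of the other 23, 13 were higher and 0 lower, beside 16.8% and 6.15% of all such genes. The collagen VI chains COL6A1, COL6A2 and COL6A3 were higher by 6.82, 7.09 and 5.35 on the log2 scale, although the 4 tested probe sets of COL6A1 ranged from −0.55 to 6.82. COL6A2 read 5.80 and 6.34 alone and 1484 and 1517 after coculture. TGFBI, an adhesion protein of the matrix, read 7.75 and 10.1 alone and 752 and 813 after coculture. The metalloproteinase inhibitor TIMP1 was higher by 5.07, the collagen I chain COL1A2 by 4.66, fibronectin (FN1) by 4.42 and the collagen cross-linking enzyme LOX by 4.38.

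Of 24 tested genes of the stromal cytoskeleton and surface list, 15 were higher and 0 lower, with a median of 1.65. Of the 19 members not below the median of both arrays alone, 10 were higher, beside 16.8% of all such genes. The calcium-binding protein S100A6 read 2 and 11.9 alone and 920 and 1013 after coculture. The intermediate filament vimentin (VIM) was already measurable alone, at 143 and 198, and read 3089 and 3043 after coculture. The receptor kinase AXL was higher by 3.37, the ectonucleotidase NT5E by 4.12 and the transcription factor PRRX1 by 2.29.

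Several defining stromal markers were not called or not tested. The proteoglycan LUM, with 2.14 and 9.69 alone and 9.45 and 1.61 after coculture, POSTN, PDGFRA, PDGFRB and CNN1 were too dim in the 4 arrays to be tested. Smooth-muscle genes were not called, with changes of −0.55 for ACTA2, −1.06 for TAGLN and −0.53 for MYL9. The surface markers THY1 and ENG read 40.5 and 36.2 and 16.3 and 32.0 alone, and 56.4 and 34.9 and 23.2 and 11.9 after coculture. COL1A1 changed by −0.02 on its brightest probe set, while its other 3 tested probe sets were called higher, at 3.09, 6.27 and 6.72.

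Summed over measured members, the matrix list gave 2153 and 2078 alone and 16334 and 16153 after coculture. The cytoskeleton and surface list gave 4051 and 4136 alone and 15014 and 14938 after coculture, and the secreted list gave 1664 and 1503 alone and 31789 and 31222 after coculture. Of 36 measured matrix genes, 13 lay below the median of both arrays alone and 2 below that of both coculture arrays. HS-5 RNA carried through the sort and transcripts made by MM.1S cells cannot be told apart in these arrays, and neither can fewer cells of a type and less RNA per cell. A list meant to hold markers of lineages that neither culture holds was read in the same way. Of 26 measured, 7 were tested, 1 was higher (SYT1, 1.34), 1 was lower (PECAM1, −1.33) and the median was −0.81. Of those tested, 0 lay below the median of both arrays alone, against 18 of the secreted and 11 of the matrix list. None thus entered only through the coculture arrays, so this list cannot serve as a control for the stromal lists. PECAM1 lay in the top quartile of both arrays alone and is also on the adhesion and homing list. It thus gave signal in MM.1S without stroma and is not a marker foreign to this culture.

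**Figure D2:**
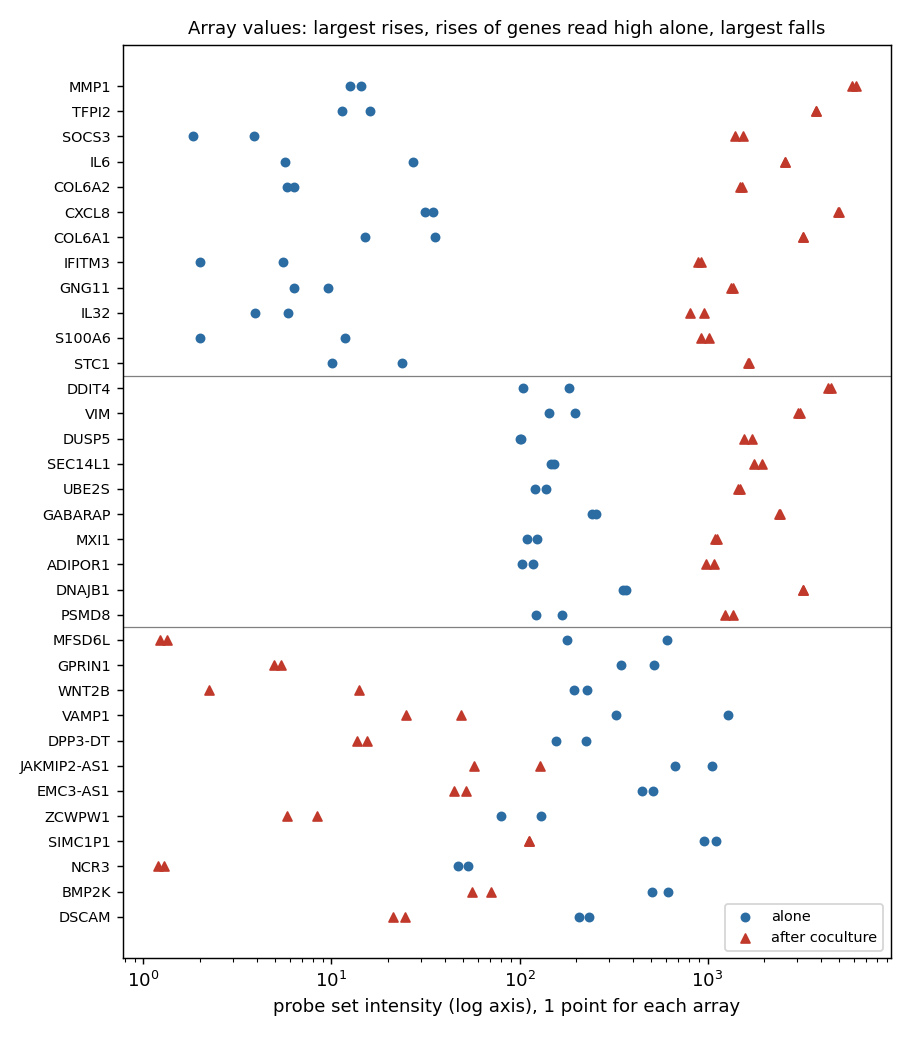
Intensity on each of the 4 MM.1S arrays (horizontal, log axis) for the 12 largest rises, the 10 largest rises among genes in the top quartile of both arrays alone, and the 12 largest falls, with blue circles for the arrays alone and red triangles for those after coculture. In every row the 2 groups lie apart, and in the top block the arrays alone read at most 35.4 while those after coculture read at least 807.

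Targets of interleukin 6 and STAT3 were among the higher genes. Of 21 tested members of the pathway list, 10 were higher and 0 lower, with a median change of 1.05. Of the 16 members not below the median of both arrays alone, 5 were higher, beside 16.8% of all such genes. SOCS3, the feedback inhibitor induced by STAT3, read 1.83 and 3.89 alone and 1544 and 1402 after coculture, although its 3 tested probe sets ranged from 0.60 to 7.57. The transcriptional repressor BCL6 read 8.21 and 6.09 alone and 281 and 306 after coculture. The oncostatin M receptor OSMR, the transcription factor CEBPD and the kinase PIM1 were higher by 3.92, 3.17 and 2.20. The kinase PIM2, already bright in MM.1S alone at 3128 and 3042, was higher by 1.08. The receptor chain IL6R changed by 0.49, the signal transducer IL6ST by 1.03 and STAT3 itself by 0.60, none of them called. The 4 probe sets of STAT3 ran from 0.27 to 4.06, and those of IL6ST from −1.35, called lower, to 1.13. CISH, a target of STAT5, changed by −0.57 without a call.

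The promoter of BCL6 is shown because it was the 1 higher gene of this list with a match to the GAS motif, the STAT site searched as TTCCNNGAA. The search covered both strands of the 250 bases before each gene start in RefSeq promoters of GRCh38.p14. The stretch, written 5′ to 3′ on the strand of the gene with the match in capitals, lies at chr3:187745473-187745511 on the minus strand.
BCL6: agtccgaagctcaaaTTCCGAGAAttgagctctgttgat
GAS matches were found in 1 of 8 higher and 1 of 9 uncalled members with a promoter in the table, against 3.98% of 27305 promoters. The match is a description of the letters only.

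Interferon-stimulated genes, which code for antiviral and antigen-processing proteins, were higher for about as many members as not. Of 38 tested, 20 were higher and 0 lower, with a median of 1.34, and 18 were higher and 1 lower after quantile normalization. All 10 members below the median of both arrays alone were higher, and 10 of the other 28. Over all genes not below that median, 16.8% were higher. The antiviral membrane protein IFITM3 read 2.01 and 5.49 alone and 925 and 893 after coculture, and IFI6 read 11.6 and 8.77 alone and 617 and 625 after coculture. The antiviral GTPase MX1 was higher by 4.95, the ubiquitin-like modifier ISG15 by 3.83 and the tetherin gene BST2 by 2.95. BST2 was well above background alone, at 270 and 290, and reached 2220 and 2160. Other members of the same class stayed uncalled, among them IFIT1 with a change of 0.30, MX2 with 0.26, the RNA sensors IFIH1 with 0.31 and RIGI with 0.18, and OAS3 with 0.21. SP110 changed by −1.06 on its brightest probe set.

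Promoters of the higher interferon genes are shown for their matches to the core of the interferon-stimulated response element, searched on both strands as TTTC, any 2 bases and TTTC, which reads GAAA, any 2 bases and GAAA on the opposite strand. Each stretch runs 5′ to 3′ on the strand of the gene, from RefSeq promoters of GRCh38.p14, with the match in capitals.
IFITM3: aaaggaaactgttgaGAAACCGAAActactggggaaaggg
IFI6: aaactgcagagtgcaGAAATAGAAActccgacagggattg
ISG15: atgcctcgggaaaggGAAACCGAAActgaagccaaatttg
IFITM1: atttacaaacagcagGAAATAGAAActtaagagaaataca
PLSCR1: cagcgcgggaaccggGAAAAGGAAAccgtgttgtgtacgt
BST2: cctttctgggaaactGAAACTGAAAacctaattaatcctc
These lie at chr11:320871-320910 (minus strand) for IFITM3, chr1:27672261-27672300 (minus) for IFI6, chr1:1013375-1013414 (plus) for ISG15, chr11:313985-314024 (plus) for IFITM1, chr3:146544662-146544701 (minus) for PLSCR1 and chr19:17405730-17405769 (minus) for BST2. A match was present in 9 of 17 higher members with a promoter in the table and in 10 of 15 uncalled members, so the letters did not separate the called from the uncalled genes. The share was 3.07% over all 27305 promoters.

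Genes of MHC class I presentation were higher for 12 of 20 tested members, with 0 lower and a median of 1.37. Over all genes, 19.0% were higher and 5.86% lower. The classical molecules HLA-B and HLA-C read 661 and 722 and 838 and 890 alone, against 3317 and 3359 and 3430 and 3595 after coculture. Their probe sets agreed, with ranges of 2.14 to 2.26 for 3 probe sets of HLA-B and 1.82 to 2.68 for 4 of HLA-C, although the MHC class I genes are near-identical copies that probes may share. The immunoproteasome subunit PSMB8 was higher by 2.76. The peptide transporters TAP1 and TAP2 were not called, with 0.65 and 0.31, and neither was HLA-E with 0.78.

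The list of metallothioneins, small cysteine-rich proteins that bind zinc and are induced by metals and glucocorticoids, and a few other metal and oxidative stress genes had a median change of 4.30, with 7 of 9 tested members higher and 0 lower. Of the 6 members not below the median of both arrays alone, 4 were higher, beside 16.8% of all such genes. MT2A read 45.3 and 46.7 alone and 3062 and 2915 after coculture, MT1G 8.28 and 7.33 against 720 and 658, and MT1X 67.3 and 69.3 against 988 and 1016. HMOX1, the stress enzyme heme oxygenase, was higher by 4.30. The metal sensor MTF1 changed by −0.48 and the zinc exporter SLC30A1 by −0.53, neither called. Metallothionein genes are near-identical copies, so their probe sets may not separate them.

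Genes of the immediate-early response, which follow growth factor and stress signals within minutes to hours, were higher for 17 of 30 tested members and lower for 1, with a median of 1.33. IER3 read 48.2 and 47.7 alone and 1703 and 1742 after coculture. The MAP kinase phosphatases DUSP5 and DUSP1 were higher by 3.96 and 3.40, and the AP-1 subunits JUN, JUNB, FOS and FOSL1 by 2.49, 2.20, 2.43 and 2.42. The other tested probe set of DUSP1 changed by −0.74 and was not called. Not all early genes followed: EGR1 changed by −0.50 and NR4A1 by −0.99, uncalled, and the orphan receptor NR4A3 was lower, at −1.77. NF-kB targets were higher for 7 of 24, with 0 lower and a median of 0.40. Of the 22 members not below the median of both arrays alone, 5 were higher, beside 16.8% of all such genes. The chemokine CCL20 was higher by 5.62, the survival protein BCL2A1 by 2.97 and the superoxide dismutase SOD2 by 2.23. The direct feedback genes of the pathway were not called, with 0.33 for NFKBIA and −0.30 for TNFAIP3, the latter reading 2108 and 2069 alone and 1731 and 1658 after coculture.

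Heat-shock genes were higher for 7 of 16 tested, with 0 lower and a median of 0.85. After quantile normalization that median was 0.08, with 7 higher and 1 lower. The small chaperone HSPB1 read 37.6 and 16.5 alone and 1033 and 1060 after coculture, the cochaperone DNAJB1 355 and 368 against 3215 and 3207, and BAG3 was higher by 3.0. HSF1, the regulator of the response, changed by −0.55 and was not called.

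Hypoxia and glycolysis genes were higher for 27 of 33 tested members and lower for 0. The median change was 1.85, and 22 were higher after quantile normalization. Enzymes that were bright alone were involved: lactate dehydrogenase LDHA read 1527 and 1527 alone and 6289 and 6002 after coculture, the aldolase ALDOA 1609 and 1526 against 5244 and 4950, and GPI 455 and 472 against 3283 and 3207. Among HIF targets, BHLHE40 was higher by 4.67, the kinase PFKFB4 by 3.43, the oxygen sensor EGLN1 by 3.08 and NDRG1 by 2.73. The glucose transporter SLC2A3 was higher by 2.67, while SLC2A1 read 159 and 144 alone and 144 and 133.4 after coculture. ADM and ENO2 were not called, with 0.70 and 0.16.

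Glucocorticoid-responsive genes were higher for 9 of 14 tested, with 0 lower and a median of 1.69. Of the 11 members not below the median of both arrays alone, 7 were higher, beside 16.8% of all such genes. The growth factor inhibitor ERRFI1, below that median and so tested through the coculture arrays, read 5.27 and 10.7 alone and 394 and 393 after coculture. TXNIP and TSC22D3 (GILZ), both known dexamethasone targets, were higher by 1.73 and 1.65, and FKBP5 changed by 0.68 without a call. The glucocorticoid receptor NR3C1 read 915 and 1026 alone and 934 and 953 after coculture, so its levels alone and after coculture overlapped.

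Genes of the plasma cell list were higher for 10 of 20 tested members, with 0 lower and a median of 0.99. Over all genes, 19.0% were higher. The 10 include CAV1, higher by 1.24, which is also on the stromal cytoskeleton and surface list. The count depends on the scaling: after quantile normalization 3 were higher, and the median was 0.51. IRF4, the transcription factor on which myeloma cells depend, read 520 and 620 alone and 2596 and 2477 after coculture, but its 2 probe sets read −0.25 and 2.15. PRDM1, which drives plasma cell differentiation, read 703 and 718 against 1949 and 1836, and its 3 probe sets ranged from 1.25 to 1.44. Syndecan 1 (SDC1, CD138) was higher by 1.29 and XBP1 by 1.25. The B-cell maturation antigen TNFRSF17 (0.58), the joining chain JCHAIN (0.65) and SLAMF7 (−0.40) were not called. In MM.1S the translocated oncogene MAF read 2998 and 2856 alone and 4678 and 4855 after coculture, a change of 0.70 that was not called, and its targets went in both directions. The cyclin CCND2 was higher by 1.51, and the kinase NUAK1 lower, at −1.17. After quantile normalization CCND2 was no longer called.

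Genes of the unfolded protein response, which plasma cells need for antibody secretion, were higher for 11 of 28 and lower for 1, with a median of 1.05, against 6 higher, 1 lower and 0.50 after quantile normalization. The eIF2α phosphatase subunit PPP1R15A was higher by 2.41, EDEM1 by 1.97, HERPUD1 by 1.61 and the transcription factor DDIT3 (CHOP) by 1.46. The central chaperone HSPA5 (BiP) read 1081 and 1195 alone and 2094 and 2239 after coculture, a change of 0.93 that was not called. The chaperone HSP90B1 (GRP94) was lower, at 3481 and 3497 alone and 1646 and 1730 after coculture, and both of its probe sets read lower, at −1.05 and −0.89. In the list of amino acid stress, 12 of 26 were higher and 0 lower, with a median of 1.13, and 7 were higher after quantile normalization. DDIT4, an inhibitor of mTORC1, was the highest at 4.96, and the asparagine synthetase ASNS was higher by 1.21, while ATF4 changed by 0.85 without a call.

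Of the BCL2 family, 11 of 17 tested were higher and 0 lower, with a median of 1.60. Both sides of the family were among them. The survival proteins MCL1, BCL2L1 (BCL-xL) and BCL2A1 were higher, MCL1 at 1233 and 1191 alone and 4486 and 4371 after coculture. The death-promoting members BAX, BMF, PMAIP1 (NOXA) and BCL2L11 (BIM) were higher by 2.74, 2.13, 1.60 and 1.53. BNIP3 and BNIP3L, which also direct mitophagy, were higher by 3.0 and 3.26. BCL2 itself read 648 and 649 alone and 708 and 683 after coculture. Of the death receptor list, 4 of 18 were higher, near the 19.0% of all genes, and 0 lower, with a median of 0.42: APAF1, CASP10, TNFSF10 (TRAIL) and BIRC5 (survivin). After quantile normalization 1 was. The receptors FAS and TNFRSF10A changed by −0.81 and −0.58 and were not called.

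Growth and protein synthesis genes split into groups whose call depended on scaling. Of 39 tested ribosomal protein genes, 26 were higher and 0 lower, with a median of 1.35, but 8 were higher after quantile normalization, with a median of 0.42. RPL11 read 1293 and 1319 alone and 6674 and 6429 after coculture, while RPL27, brighter alone at 5014 and 4593, changed by 0.59. Respiratory chain genes were higher for 22 of 33, median 1.23, against 11 and 0.79 after quantile normalization. The complex III core protein UQCRC1 was higher by 3.04 and the cytochrome oxidase subunit COX5A by 2.63. Proteasome subunits were higher for 9 of 26, median 0.67, against 6 and 0.26, with PSMD8 at 3.12 and PSMC3 at 2.36.

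In the list of MYC and ribosome biogenesis, 9 of 33 were higher and 3 lower, beside 19.0% and 5.86% of all genes. The median was 0.25, close to that of all genes. After quantile normalization 5 were higher and 7 lower, with a median of −0.12. MYC read 1442 and 1390 alone and 3064 and 2830 after coculture, a change of 1.05 that missed the call. CDK4 was higher by 2.45 and the polyamine enzyme ODC1 by 1.5. UTP20, a ribosome assembly factor, was lower, at −2.39, the transferrin receptor TFRC by −1.49 and the RNA polymerase I subunit POLR1A by −1.37. TFRC was among the bright genes alone, at 3953 and 3609, and read 1341 and 1343 after coculture. Cell cycle genes were higher for 9 of 44, near the 19.0% of all genes, and lower for 1, with a median of 0.34, and −0.05 after quantile normalization, where 4 were higher and 1 lower. The mitotic kinase PLK1 was higher by 2.56, the ribonucleotide reductase subunit RRM2 by 1.74 and the inhibitor CDKN1A (p21) by 1.68. The replication licensing factor CDC6 was lower, at −1.69, although its other probe set read 1.09. The proliferation marker MKI67 read 1270 and 1234 alone and 1676 and 1680 after coculture, and was not called.

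Of cholesterol and lipid genes, 2 of 23 were higher and 3 lower, beside 19.0% and 5.86% of all genes. The median was −0.07. The sterol regulator SREBF2 read 296 and 286 alone and 83.8 and 63.2 after coculture. The biosynthesis enzymes MSMO1 and DHCR7 were lower, at −1.52 and −1.26. The cholesterol exporter ABCA1 read 13.0 and 5.46 alone and 316 and 295 after coculture, and PMVK was higher by 2.38. After quantile normalization 5 members were lower, beside 1200 of all 12960 genes.

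Adhesion and homing genes were higher for 9 of 29 and lower for 2, beside 19.0% and 5.86% of all genes. The median was 0.72. The chemokine receptor ACKR3 (CXCR7) read 31.9 and 9.57 alone and 830 and 834 after coculture. The tetraspanins CD81 and CD9 were higher by 3.84 and 2.57, the adhesion molecule ICAM1 by 2.42 and the integrin ITGB1 by 2.03. CXCR4, the main receptor for marrow homing, read 634 and 586 alone and 1144 and 1098 after coculture, and the integrin ITGA4 changed by 0.54, neither called. CXCR3 and PECAM1 were lower, at −1.42 and −1.33. In the Notch and Wnt list, 4 of 22 were higher, near the 19.0% of all genes, and 3 lower, with a median of 0.35. WNT5A read 34.6 and 67.2 alone and 971 and 921 after coculture, and the receptor NOTCH1 was lower, at −1.29.

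**Figure D3:**
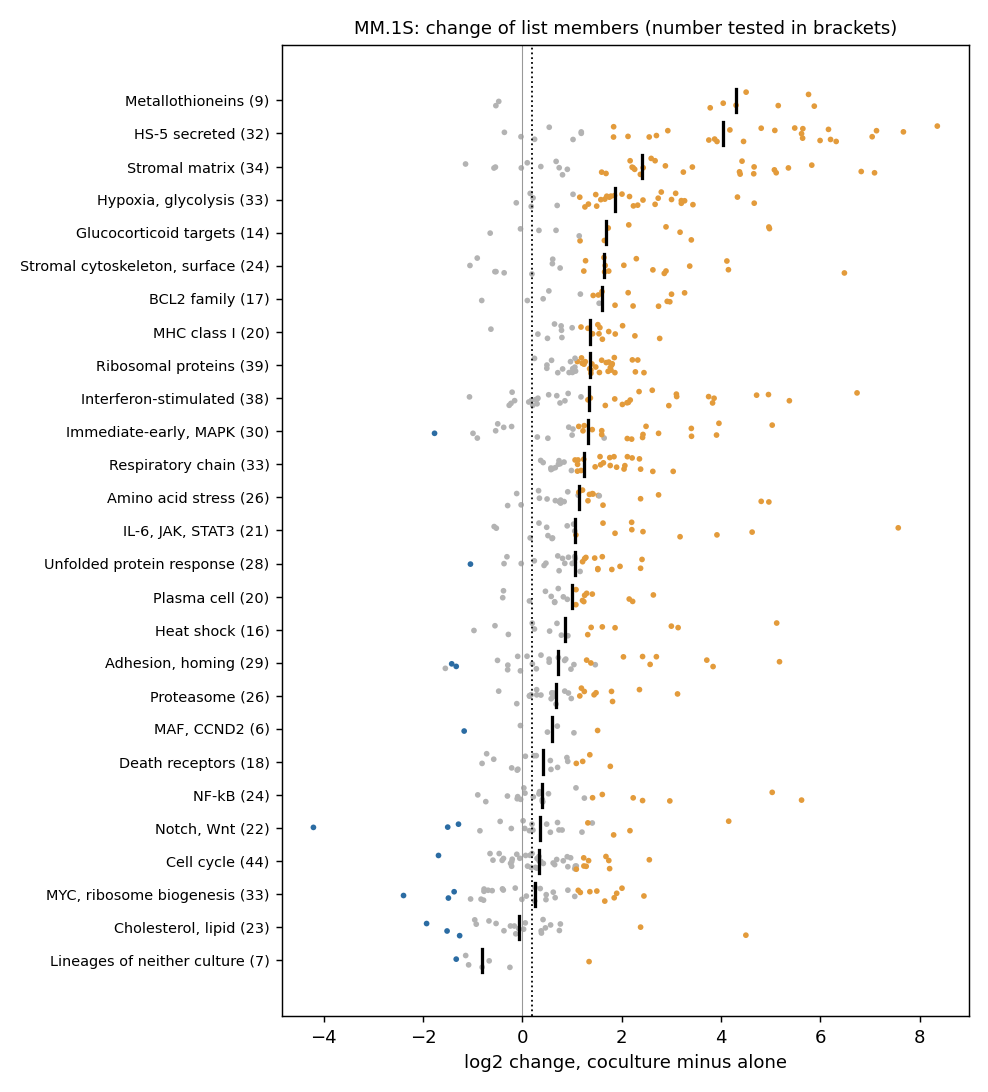
Log2 change (coculture minus alone) of each tested member of 27 gene lists, 1 list for each row, with orange points for genes called higher, blue for lower and grey for not called. Black bars are list medians and the dotted line is the median of all 12960 genes, 0.19. Metallothioneins (4.30), HS-5 secreted factors (4.05) and stromal matrix (2.40) have the medians farthest to the right.

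Genes already bright in MM.1S alone do not start from background. Among genes in the top quartile of both arrays alone, 1121 of 6966 (16.1%) were higher and 543 (7.80%) lower. DDIT4 read 184 and 104 alone and 4556 and 4372 after coculture, the largest such rise. The phosphatase DUSP5 read 102 and 100 alone and 1719 and 1561 after coculture. The ubiquitin-conjugating enzyme UBE2S, the autophagy protein GABARAP, the MYC antagonist MXI1 and the adiponectin receptor ADIPOR1 followed with log2 changes of 3.46, 3.25, 3.20 and 3.17. SEC14L1 was higher by 3.59, but its 3 probe sets ranged from 0.57 to 3.59. Of the 17 HS-5 or stromal genes in this class, 9 were higher: ANXA2, CAV1, CNN2, LGALS1, SPARC, TIMP2, TPM4, TWIST1 and VIM. MM.1S without stroma thus already gave signal for each of them.

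The lower genes were smaller in number and in size, with a median change of −1.53 against 1.81 for the higher genes. MFSD6L, a membrane protein of the major facilitator family, read 612 and 179 alone and 1.33 and 1.22 after coculture, the largest fall at −5.75. Its duplicates alone were more than 2-fold apart. GPRIN1, a neurite outgrowth protein, read 348 and 519 alone and 4.93 and 5.38 after coculture, but its other tested probe set read 1.51. WNT2B read 229 and 196 alone and 14.1 and 2.24 after coculture. VAMP1, a vesicle fusion protein, read 1282 and 326 alone and 48.7 and 24.9 after coculture, with 0.04 on its other probe set. The other 8 of the 12 largest falls lay between −3.30 and −3.02. They included the antisense or divergent RNAs DPP3-DT, JAKMIP2-AS1 and EMC3-AS1 and the pseudogene SIMC1P1, and among coding genes ZCWPW1, NCR3, BMP2K and DSCAM. The strand that each probe set reads was not examined, so an antisense RNA and its partner gene may not be separated.

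Falls on which every tested probe set agreed were smaller. The pseudogene PRKXP1 was lower, at −2.24, with 3 probe sets from −2.95 to −2.24. The microtubule-severing gene FIGN, the centrosomal WDR62, the zinc finger ZNF202 and the mitochondrial ATPase ATAD3B were lower, at −2.15, −1.88, −1.79 and −1.72. RASEF, a RAB-family GTPase, was the brightest of them, at 3342 and 3089 alone and 1050 and 961 after coculture.

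The calls were also counted by gene type. Of 816 tested long noncoding RNA genes, 11.0% were lower and 5.76% higher, and of 219 pseudogenes 18.7% were lower and 11.0% higher, beside 5.28% lower and 20.1% higher for 11883 protein-coding genes. The median span of the gene in RefSeq was 33.1 kb for lower genes, 23.6 kb for higher genes and 29.3 kb for all tested genes. These are descriptions without a test.

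Probe sets of the same gene often disagreed. Of all tested probe sets with 1 symbol, 19.8% were called higher and 5.88% lower, and the other probe sets of uncalled genes had a median change of 0.23, so the shares for rises and falls have different backgrounds. Of the 2466 higher genes, 1152 had another tested probe set. In 585 of these (50.8%) another probe set was also called higher, in 337 (29.3%) all others were, in 402 (34.9%) at least 1 had the opposite sign and in 58 (5.03%) at least 1 was called lower. Of the 760 lower genes, 358 had another tested probe set. In 84 of these (23.5%) another was called lower, in 25 (6.98%) all others were, in 190 (53.1%) at least 1 had the opposite sign and in 37 (10.3%) at least 1 was called higher. Over all 6018 genes with several tested probe sets, the median range of the change within a gene was 1.20, and 3477 genes (57.8%) had a range of at least 1. The rises with agreement of all probe sets were led by TFPI2 (2 probe sets, 6.32 and 7.67), COL6A2 (2.22 and 7.09), CXCL8 (4.01 and 7.04) and STC1 (3 probe sets from 3.22 to 6.76). PTGS2 (cyclooxygenase 2), CXCL5, GREM1 and DEPP1 followed with 5.93, 5.64, 5.48 and 5.30.

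**Figure D4:**
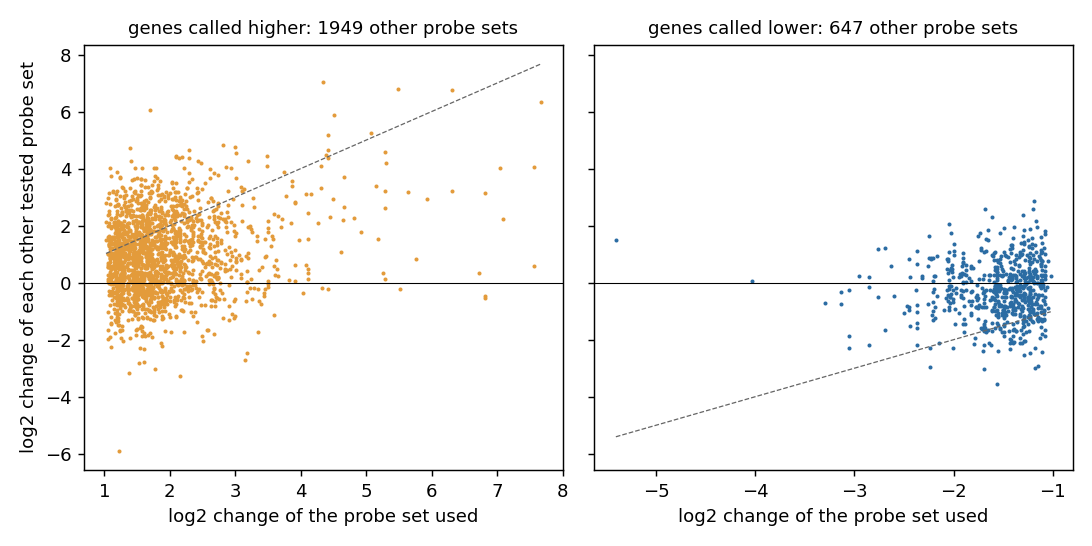
Log2 change of each other tested probe set (vertical) against that of the probe set used for the gene (horizontal), for genes called higher (left) and lower (right), with the dashed line marking equality and the solid line no change. The other probe sets have a median change of 0.92 for the higher genes and −0.31 for the lower genes, of which 190 of 358 have at least 1 of opposite sign.

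The same genes were read in the other 2 lines, which have their own arrays alone. Across the 12960 genes, the changes in MM.1S and MM.1R had a Pearson r of 0.79 and those in MM.1S and INA-6 of 0.38; genes are not independent, and each line is 1 comparison. In MM.1R, 10.6% of all genes were higher and 1.20% lower, and in INA-6 26.9% and 5.47%. Of the 2466 genes higher in MM.1S, 1063 (43.1%) were higher in MM.1R, which is 77.7% of the higher genes of MM.1R, and 0 were lower there. In INA-6, 1043 of them (42.3%) were higher and 29 lower. Of the 760 genes lower in MM.1S, 106 (13.9%) were lower in MM.1R, 166 (21.8%) were lower in INA-6 and 111 (14.6%) were higher in INA-6. All 3 lines shared 584 higher and 26 lower genes, which is 23.7% and 3.42% of those of MM.1S. The 3′-to-5′ ratio of ACTB moved the same way in MM.1R, from a mean of 31.4 alone to 5.21, and the other way in INA-6, from 5.51 to 32.0. The duplicates of INA-6 alone were also less alike, with 37.7% of genes at least 2-fold apart. The part of these values in the differences between lines was not tested.

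The lists of genes typical of stroma were set side by side in the 3 lines. The median change of HS-5 secreted factors was 4.05 in MM.1S, 5.49 in MM.1R and 3.49 in INA-6, that of stromal matrix genes 2.40, 3.88 and 1.45, and that of stromal cytoskeleton and surface genes 1.65, 1.15 and 1.04. In INA-6, 15 of 34 matrix genes and 11 of 24 cytoskeleton and surface genes were called higher, 1 of the latter was lower, and VIM, with a change of 0.50, was not called. IL6 itself changed by 7.13, 7.42 and 4.61. Hypoxia and glycolysis (1.85, 1.75 and 2.10) and interferon-stimulated genes (1.34, 1.44 and 1.13) had like medians in the 3 lines. The medians were apart for MHC class I (1.37, 0.58 and −0.11), ribosomal proteins (1.35, 0.36 and 0.08), the respiratory chain (1.23, 0.47 and 0.06) and the unfolded protein response (1.05, 0.65 and −0.37). Quantile normalization of the MM.1S arrays brought the MM.1S medians of ribosomal proteins to 0.42 and of the respiratory chain to 0.79. SOCS3 changed by 7.57 in MM.1S, 7.38 in MM.1R and 2.25 in INA-6. The differences between lines were not tested, since each line has 1 sample per condition.

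**Figure D5:**
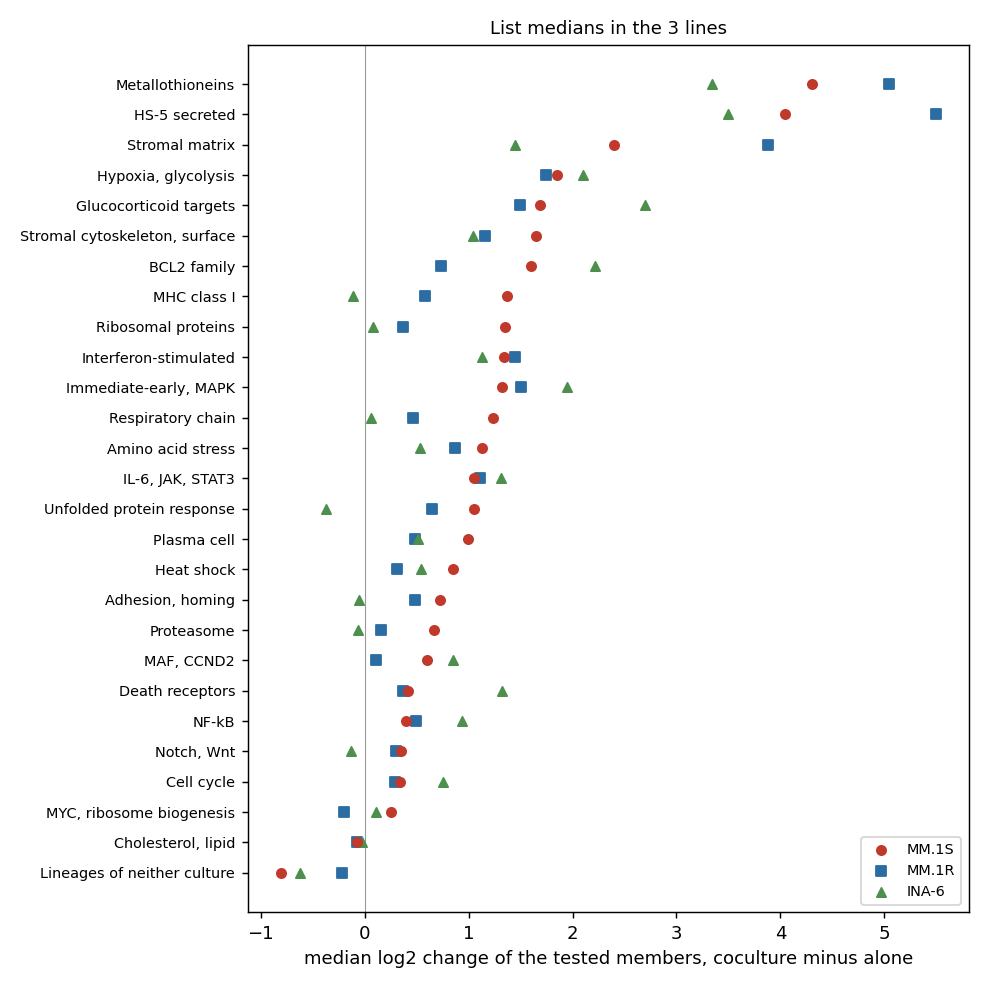
Median log2 change (coculture minus alone) of the tested members of 27 gene lists in MM.1S (red circles), MM.1R (blue squares) and INA-6 (green triangles). The HS-5 secreted, metallothionein and stromal matrix lists lie far above 0 in each line, while ribosomal protein and respiratory chain medians are 1.35 and 1.23 in MM.1S, or 0.42 and 0.79 after quantile normalization of its arrays.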

How the data were processed

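Gene expression was measured on 4 MM.1S arrays, set beside 8 arrays of MM.1R and INA-6. The deposited values are 1 intensity for each probe set and array, on a linear scale from 0.43 to 20802. MAS5 is the tool in the submitters' processing notes, whereas dChip normalization, modeling and averaging of duplicate chips stand in the design text. Which of them the authors used for these values is not settled, and the sources used here name no version. For arrays, precision is limited by their number.

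Of 54675 probe sets, 1 with a missing value and 62 controls were left out. GEO's platform annotation gave 1 symbol to 41091, several to 1801 and none to 11720; symbols were looked up in RefSeq for 41037, and 0 changed. A probe set was tested if it exceeded the median of its array in at least 2 of the 4 MM.1S arrays, as 29176 did. Each gene took the tested probe set that was brightest on average over 12 arrays. The call needs 2-fold between the nearest arrays on log2(intensity + 5). Limma 3.58.1 in R 4.3.3 was run only as an alternative (Benjamini-Hochberg adjusted p under 0.05 and a 2-fold change), since its p-values measure the spread between technical duplicates. Other alternatives were the pseudocount, scaling, filter, choice of probe set and leaving out each array.

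Named genes are the 12 largest rises and falls among called genes. To these were added the 8 largest of each among genes whose probe sets were all called alike, the 10 largest of each in the top quartile alone, the 8 largest rises below the median alone, up to 4 genes called oppositely in each other line and direction, and members of 27 gene lists. Members and lists were chosen with earlier results of these data known. Which list members serve as examples was chosen after their values were seen.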

Additional observations from a re-analysis of the deposited data

Results flagged for a closer look

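Some genes were called in opposite directions in MM.1S and another line, and the difference between the lines was not tested. NPM2, an oocyte histone chaperone, was lower in MM.1S, with a log2 change of −1.59, and higher in MM.1R, with 1.81. Its values are dim: 44.6 and 23.9 alone and 6.79 and 8.46 after coculture in MM.1S. In MM.1R they were 1.68 and 1.53 alone and 11.3 and 28.1 after coculture. The MM.1S call was lost with 16 in place of 5 added to the intensity, and with a filter at the 75th percentile. GOLM1, a Golgi membrane protein, was higher in MM.1S by 3.67, at 30.5 and 60.3 alone and 624 and 591 after coculture, and lower in INA-6, with −1.30. The growth factor receptor FGFR2 changed by 3.44 and −1.94, MPDU1, of dolichol-linked glycosylation, by 3.34 and −1.50, and the lysosomal lipase LIPA by 2.41 and −1.76, in MM.1S and INA-6. SUZ12P1 was lower in MM.1S, at −3.0 and higher in INA-6 by 1.54, NEXN, an actin-binding protein, by −2.78 and 1.91, PTAFR, the receptor of platelet-activating factor, by −2.63 and 2.53, and ASMTL-AS1 by −2.38 and 1.28. FGFR2 had 3 tested probe sets from −0.46 to 3.44 in MM.1S. The other tested probe set of PTAFR changed by 0.58 in MM.1S, and PTAFR read 2.87 and 1 in INA-6 alone. The 3′-to-5′ ratio of ACTB also moved oppositely in MM.1S and INA-6, and its part was not tested.

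Probe sets without a gene symbol in the annotation used entered no gene comparison. Of 4634 such probe sets tested, 715 (15.4%) were lower and 397 (8.57%) higher in MM.1S after coculture, against 5.88% and 19.8% of 23409 probe sets with 1 symbol.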

How the results depend on the processing

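Every setting kept more genes higher than lower in MM.1S. Besides the 2466 higher and 760 lower genes, quantile normalization gave 1834 higher and 1200 lower, and a 4-fold spacing gave 711 and 63. Leaving out 1 array gave between 2592 and 3098 higher and between 923 and 1124 lower genes, since the spacing is then taken over fewer arrays. Limma on the 4 MM.1S arrays called 2913 higher and 1093 lower without a block, and 2967 higher and 1194 lower with the replicate number as a block. The numbers name technical arrays, so they were not taken as a pairing in the calls. The deviations of same-numbered arrays alone and after coculture had a Pearson r of 0.47 across genes. What these arrays share was not tested. Over 15 alternatives other than the 4-fold spacing, 1185 of the higher genes (48.1%) and 218 of the lower genes (28.7%) stayed called in all. Of the called genes named or listed, 3 reversed: PTAFR to 0.58 on the probe set brightest in the other lines, and RPS6 to −0.40 and RPS24 to −0.20 as means over probe sets. For these the probe sets of the gene disagree. Uncalled genes also changed sign, such as SP110, which ran up to 1.14. Some called genes kept their sign but came close to no change under an alternative. The smallest rises were 0.46 for CD9, 0.37 for NT5E and 0.05 for PIM2. The smallest falls were −0.14 for DHCR7 and −0.33 for POLR1A. The 2 arrays of a condition limit the precision, and 9.42% of genes differed 2-fold between the duplicates alone.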
